A study of Mus musculus with 6 samples.

Results

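Metallothioneins and zinc transporters set how much free zinc a brain cell holds and where it is kept. The genes described here are 8: the metallothioneins Mt1, Mt2 and Mt3, the Slc30 family exporters Slc30a1, Slc30a3, Slc30a4 and Slc30a10, and the zinc importer Slc39a10. They were taken by gene symbol from a table of 51912 genes, and each symbol matched 1 row. RNA was sequenced from the hippocampus of C57BL/6 and of DBA/2 mice, 2 inbred strains; each has 3 libraries, and no treatment is named for either. Age, sex and substrain are not in the labels, nor is it plain that every library is a separate animal; the spread behind each p-value is that among libraries and could be technical in part. The comparison asks which of these genes differ in level between the strains.

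Metallothioneins are small cysteine-rich proteins that bind zinc and copper; Mt1 and Mt2 are inducible by metals, glucocorticoids and inflammation, while Mt3 is the form typical of brain. Proteins of the Slc30 family, also called ZnT, move zinc out of the cytosol, either out of the cell or into vesicles, and proteins of the Slc39 family, also called ZIP, move it in. In the hippocampus, Slc30a3 (ZnT3) loads zinc into glutamate vesicles, above all in the mossy fibre terminals of dentate granule cells. The transcription factor Mtf1 senses zinc and binds metal response elements in the promoters of Mt1, Mt2 and Slc30a1.

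Library totals ran from 13839366 to 20185683 counts. Levels are CPM, counts normalised for library size with TMM scaling, and fold changes are DBA/2 over C57BL/6 on the log2 scale with their standard error. A gene was called at a Benjamini-Hochberg adjusted p under 0.05 in edgeR's quasi-likelihood test over all 17517 genes that passed the count filter. RNA of the X-linked gene Xist, which marks female cells, was at 3214 and 6995 counts in C57BL/6 replicates 1 and 3 and at 1 count in replicate 2, against 2 to 12 counts in the DBA/2 libraries. Values without the 2 libraries that held it are given where they end a call or move a value. That fit leaves C57BL/6 replicate 2 alone for its strain, so its p-values rest on no spread within C57BL/6. Hippocampal markers were present in both strains: the granule cell factor Prox1 was at 119 to 135 CPM and the CA1 gene Wfs1 at 114 to 140 CPM over the 6 libraries.

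In DBA/2 hippocampus, Mt1, Mt2 and Slc30a10 were lower and Slc30a3 and Slc30a1 were higher than in C57BL/6, while Mt3 and Slc39a10 were not called. Of the 8 genes, 7 passed the count filter, Slc30a4 being the exception, and 5 of these 7 were called, 2 higher and 3 lower. Of the 2 higher calls, 1 is Slc30a1, which passed the count filter only through its DBA/2 libraries and so had to differ to be tested; with a mean of at least 5 CPM it was not tested, and 1 member was called higher and 3 lower. Over all genes tested, 22.8% were called, 9.09% as higher and 13.7% as lower. The median log2 fold change of all tested genes was 0.00, and the median size of the change in called genes was 0.47. In 5 of the 7 tested genes the ranges of the strains were clearly apart, in Slc39a10 they met at 158 CPM and in Mt3 they overlapped; over all genes tested, 36.8% did not overlap. In bulk tissue, fewer cells of a type and less RNA per cell cannot be told apart.

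**Figure D1:**
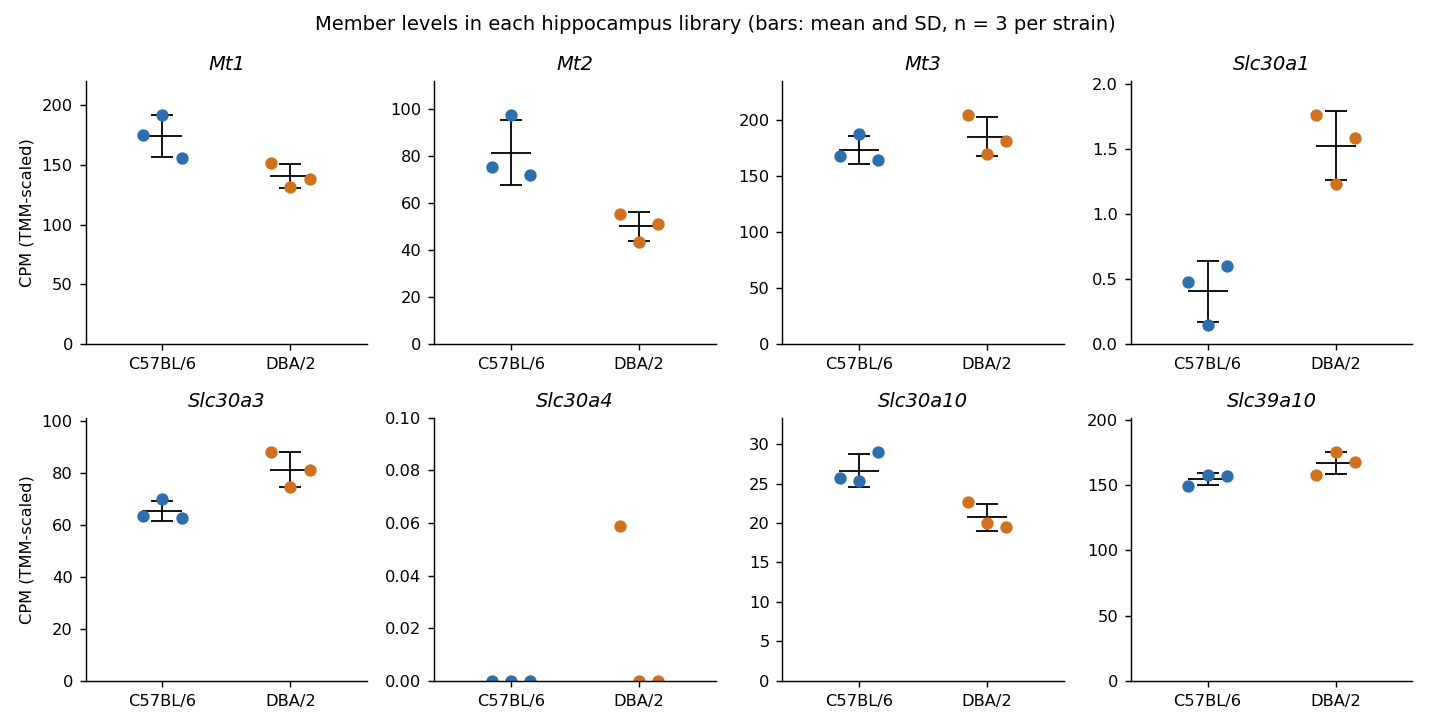
Level of each of the 8 genes in CPM (vertical axis, from 0) in the 3 C57BL/6 and 3 DBA/2 libraries (points), with mean and SD as bars where every library of a strain is above 0. The strains separate for Mt1, Mt2, Slc30a1, Slc30a3 and Slc30a10, overlap for Mt3, and touch at 158 CPM for Slc39a10; Slc30a4 had 1 count in 1 library.

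Mt1, Mt2 and Mt3 lie in 1 cluster of 27721 bases on chromosome 8 (GRCm38, 94152607 to 94180327), all on the forward strand, with Mt3 first (94152607 to 94154146), then Mt2 (94172664 to 94173568) and Mt1 (94179082 to 94180327). The epithelial metallothionein gene Mt4, whose row is also in the table, had 0 counts in every library. The promoters of the 3 expressed metallothionein genes and of Slc30a1 are shown because these are the genes through which zinc sensing by Mtf1 is usually read. Each line runs 5′ to 3′ from 250 bases before to 50 after the RefSeq start (GRCm38.p6), with matches to the metal response element core TGCACNC or TGCGCNC, on either strand, in capitals. The windows are chr8:94178839-94179138 for Mt1, chr8:94172368-94172667 for Mt2, chr8:94152357-94152656 for Mt3 and chr1:191906531-191906830 for Slc30a1, all on the forward strand.
Mt1: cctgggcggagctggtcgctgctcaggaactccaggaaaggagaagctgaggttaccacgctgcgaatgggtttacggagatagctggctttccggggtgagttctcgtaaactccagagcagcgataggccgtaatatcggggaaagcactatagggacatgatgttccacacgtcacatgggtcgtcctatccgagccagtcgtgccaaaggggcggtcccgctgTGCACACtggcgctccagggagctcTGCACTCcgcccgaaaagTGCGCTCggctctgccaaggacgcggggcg
Mt2: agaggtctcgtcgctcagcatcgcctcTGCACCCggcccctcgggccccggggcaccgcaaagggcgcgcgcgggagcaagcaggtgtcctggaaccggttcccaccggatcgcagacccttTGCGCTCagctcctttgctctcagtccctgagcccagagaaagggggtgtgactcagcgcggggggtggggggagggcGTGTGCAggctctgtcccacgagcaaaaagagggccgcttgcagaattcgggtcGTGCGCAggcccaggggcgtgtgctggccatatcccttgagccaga
Mt3: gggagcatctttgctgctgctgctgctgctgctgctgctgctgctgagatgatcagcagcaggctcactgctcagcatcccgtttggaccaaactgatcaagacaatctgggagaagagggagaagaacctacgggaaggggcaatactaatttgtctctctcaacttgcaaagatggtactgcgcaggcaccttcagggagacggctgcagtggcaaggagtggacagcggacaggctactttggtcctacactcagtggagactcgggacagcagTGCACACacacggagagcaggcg
Slc30a1: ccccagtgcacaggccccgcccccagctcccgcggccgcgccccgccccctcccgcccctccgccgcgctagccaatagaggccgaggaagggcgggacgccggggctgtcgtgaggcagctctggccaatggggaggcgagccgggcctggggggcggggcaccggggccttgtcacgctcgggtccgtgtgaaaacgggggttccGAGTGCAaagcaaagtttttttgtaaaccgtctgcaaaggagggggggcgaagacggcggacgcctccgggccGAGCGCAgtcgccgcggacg
Mt2 held 4 matches, Mt1 held 3, Slc30a1 held 2 and Mt3 held 1. Those of Mt1 began at -23, 2 and 20 bases from the start, and each number of matches holds for the start and window used. Of 32851 promoter windows of 300 bases in the RefSeq set, 25.7% held at least 1 match, 7.11% at least 2, 1.97% at least 3 and 0.517% at least 4. Among the other members, each of which had an entry, Slc30a4 and Slc30a10 held 3 matches each, those of Slc30a10 including 2 that overlap, 1 of the 2 windows of Slc30a3 held 1 match, and neither window of Slc39a10 held any. A match describes the letters of this reference window, which is C57BL/6J sequence, and not binding.

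Of the metallothionein genes, Mt2 had the lowest log2 fold change. Its levels were 75.2, 97.1 and 71.6 CPM in the C57BL/6 libraries against 55.4, 43.3 and 51.1 CPM in the DBA/2 libraries. Every DBA/2 library lay below every C57BL/6 library, and C57BL/6 replicate 2 stood above the other 2 of its strain. The means were 81.3 ± 13.8 and 49.9 ± 6.12 CPM (n = 3 each, SD), a log2 fold change of -0.70 ± 0.15 (SE; Benjamini-Hochberg adjusted p = 0.0243 by the edgeR quasi-likelihood test). This call was lost without DBA/2 replicate 2 (log2 fold change -0.60, adjusted p = 0.0617 in edgeR) and without DBA/2 replicate 3 (-0.71, adjusted p = 0.0958 in edgeR). Without C57BL/6 replicate 2, the change was -0.55 with an adjusted p of 5.34e-05 in edgeR. The antisense gene Gm45774 shares 432 of the 588 exonic bases of Mt2, and no source used here says that counting used strand, so reads of the pair may not be told apart. Gm45774 was at 2.26 ± 0.648 CPM in C57BL/6 against 1.86 ± 0.585 CPM in DBA/2 (n = 3 each, SD) and was not called.

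Mt1, the neighbour of Mt2 and the metallothionein most often used as a zinc reporter, was also lower in DBA/2. It stood at 175, 191 and 156 CPM in C57BL/6 against 151, 131 and 138 CPM in DBA/2. Its ranges in the strains were apart, and as with Mt2 the highest value was in C57BL/6 replicate 2. The means were 174 ± 17.7 and 140 ± 10.1 CPM (n = 3 each, SD), a log2 fold change of -0.31 ± 0.07 (SE; Benjamini-Hochberg adjusted p = 0.00644 by the edgeR quasi-likelihood test). Mt1 stayed called without any 1 library, with changes from -0.38 to -0.23 and adjusted p up to 0.0401 in edgeR. Without the 2 libraries that held Xist counts, the changes were -0.44 for Mt1 and -0.96 for Mt2. That fit leaves C57BL/6 replicate 2 alone for its strain, which held the highest level of both genes.

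Mt3, first described as a growth inhibitory factor of brain, was not called. Its levels were 168, 188 and 165 CPM in C57BL/6 against 205, 170 and 182 CPM in DBA/2, so the strains overlapped. The means were 174 ± 12.5 and 186 ± 17.5 CPM (n = 3 each, SD), with a log2 fold change of 0.10 ± 0.07 (SE; Benjamini-Hochberg adjusted p = 0.353 by the edgeR quasi-likelihood test). Without 1 library the change ran from 0.02 (without DBA/2 replicate 1) to 0.16 (without C57BL/6 replicate 2), and was not called in any of these fits. The sign turned, to -0.02, without the 2 libraries that held Xist counts (edgeR adjusted p = 0.953).

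The share of Mt3 in the metallothionein counts was higher in every DBA/2 library, while the summed level overlapped between the strains. Mt1, Mt2 and Mt3 together were at 429 ± 43.0 CPM in C57BL/6 against 376 ± 33.4 CPM in DBA/2 (n = 3 each, SD), and the highest DBA/2 library, at 411 CPM, lay above the lowest C57BL/6 library, at 392 CPM. Mt3 made up 40.3%, 39.5% and 42.0% of these counts in the C57BL/6 libraries against 49.7%, 49.3% and 49.0% in the DBA/2 libraries. Within a library, the ratio of Mt3 counts to the counts of Mt1 plus Mt2 was 0.684 ± 0.0371 in C57BL/6 and 0.975 ± 0.0144 in DBA/2 (n = 3 each, SD). The ratio of Mt1 to Mt2 counts was 2.16 ± 0.178 and 2.82 ± 0.182 (n = 3 each, SD). Neither ratio overlapped between the strains, and each had p = 0.1 in an exact two-sided permutation test, the smallest that 3 libraries against 3 allow, and p = 0.1 after Benjamini-Hochberg adjustment over the 3 ratios computed. Library scaling cancels in such ratios.

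**Figure D2:**
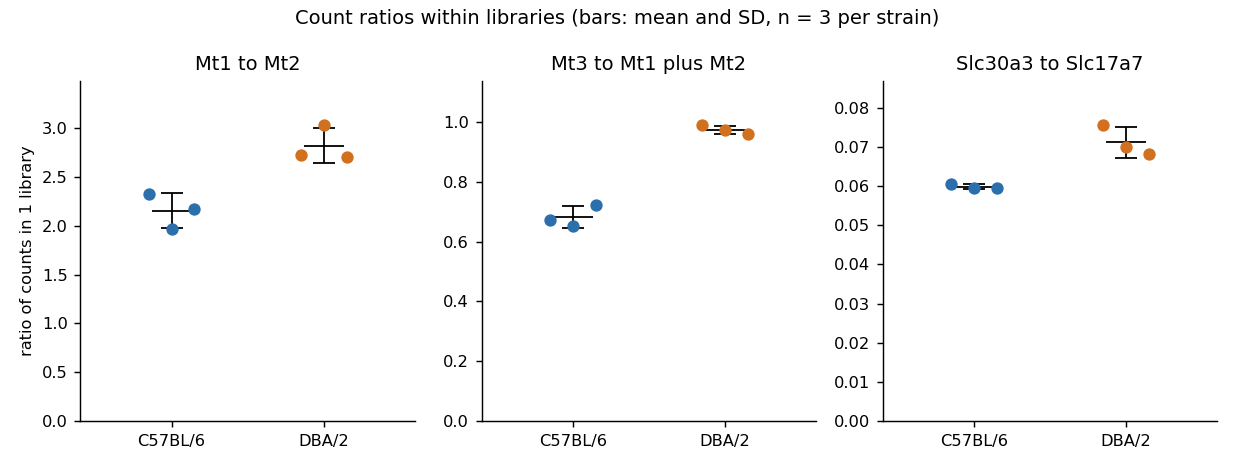
Ratios of counts within a library (vertical axes, from 0) for Mt1 to Mt2, Mt3 to Mt1 plus Mt2, and Slc30a3 to the vesicular glutamate transporter gene Slc17a7, with points for libraries and bars for mean and SD (n = 3 per strain). In each panel all DBA/2 points lie above all C57BL/6 points; the Mt3 ratio runs from 0.652 to 0.724 in C57BL/6 but from 0.961 to 0.989 in DBA/2.

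Of the 3 nearest tested genes on each side of the metallothionein cluster, none was called lower, against 13.7% of all genes tested. In DBA/2, 3 were called higher, against 9.09% of all genes tested. These were Ogfod1, an oxygenase of a ribosomal protein, with a log2 fold change of 0.15 ± 0.05, the pseudogene Rpl10-ps5 with 0.81 ± 0.23, and the noncoding gene C78859 with 0.29 ± 0.06 (SE; Benjamini-Hochberg adjusted p = 0.0495, 0.0121 and 0.00179 by the edgeR quasi-likelihood test). The others were not called: Bbs2, whose product belongs to a complex of the primary cilium, at 0.09, the nuclear pore gene Nup93 at 0.14 and the RNA processing gene Nudt21 at 0.02. Farther out, the chloride cotransporter gene Slc12a3, at -0.28, was not called.

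**Figure D3:**
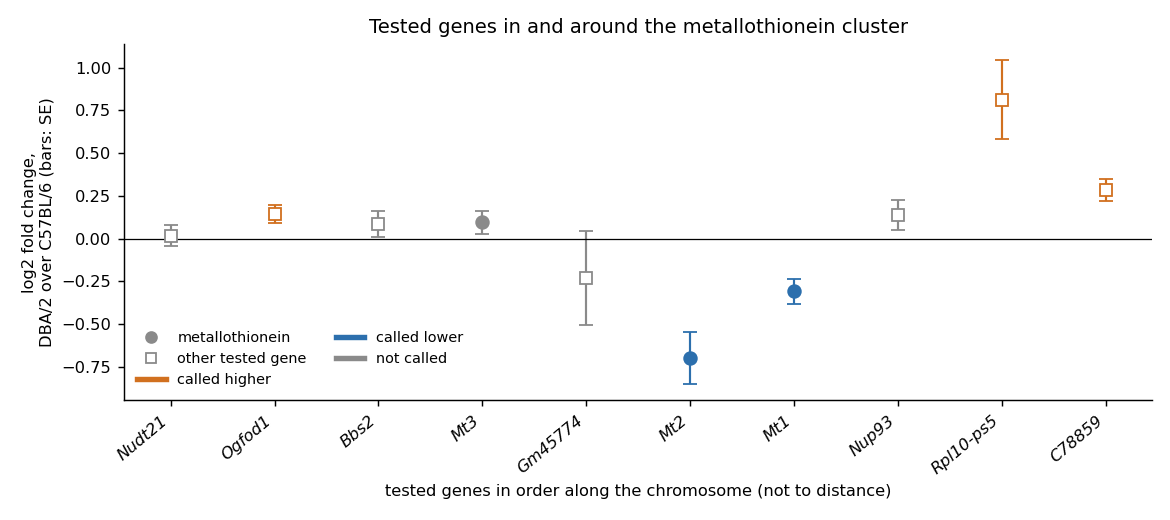
Log2 fold change, DBA/2 over C57BL/6 (vertical axis, bars are SE), of the metallothionein genes, the antisense gene Gm45774 and the 3 nearest tested genes on each side, in their order along the chromosome. Mt2 and Mt1 are the only genes shown that were called lower, at -0.70 and -0.31; Mt3 is at 0.10.

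Among the exporters, Slc30a3, the vesicular zinc transporter, was higher in DBA/2. It lies on the reverse strand of chromosome 5 (31086106 to 31108237). Its levels were 63.5, 70.0 and 62.9 CPM in C57BL/6 against 88.2, 74.6 and 81.2 CPM in DBA/2, with no overlap between the strains. The means were 65.4 ± 3.94 and 81.3 ± 6.79 CPM (n = 3 each, SD), a log2 fold change of 0.32 ± 0.07 (SE; Benjamini-Hochberg adjusted p = 0.000795 by the edgeR quasi-likelihood test). It stayed called without any 1 library, with changes from 0.26 to 0.38, but was not called without the 2 libraries that held Xist counts (0.22, adjusted p = 0.164 in edgeR).

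Slc17a7, which loads glutamate into the same vesicles, was at 1092 ± 71 CPM in C57BL/6 against 1142 ± 66 CPM in DBA/2 (n = 3 each, SD) and was not called (log2 fold change 0.06, edgeR Benjamini-Hochberg adjusted p = 0.433). Slc30a3 counts per Slc17a7 count were 0.0606, 0.0596 and 0.0596 in C57BL/6 and 0.0756, 0.0699 and 0.0681 in DBA/2. These ratios did not overlap (exact two-sided permutation test, p = 0.1, the smallest possible here). Markers of dentate granule cells and mossy fibres, the cells richest in vesicular zinc, moved in both directions beside this rise: 6 of 14 rose and 3 fell (64.3% called, against 22.8% of all genes), with a median log2 fold change of 0.11 and a summed level of 979 to 1002 CPM in C57BL/6 and 1021 to 1081 CPM in DBA/2. The largest changes among them were in C1ql2, which mossy fibres secrete at their synapses (-1.24), Tdo2, a tryptophan-degrading enzyme (-0.82), and the kinase-related gene Plk5 (0.56). Of 15 markers of CA1 to CA3 pyramidal cells, 5 rose and 2 fell (46.7% called) with a median of 0.08. Their largest changes were in Pcp4, a calmodulin-binding protein enriched in CA2 (-1.14), the kinase gene Map3k15 (0.48) and the transcription factor Pou3f1 (0.32). The part of these cells in the Slc30a3 result was not tested.

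Slc30a10, a transporter whose best known cargo is manganese, was lower in DBA/2. It lies on chromosome 1 (185454848 to 185468762, forward strand). Levels were 25.6, 25.3 and 29.0 CPM in C57BL/6 against 22.7, 20.02 and 19.5 CPM in DBA/2, again with no overlap. The means were 26.6 ± 2.04 and 20.7 ± 1.71 CPM (n = 3 each, SD), a log2 fold change of -0.36 ± 0.09 (SE; Benjamini-Hochberg adjusted p = 0.00289 by the edgeR quasi-likelihood test). The call held without any 1 library (changes from -0.43 to -0.29) and was lost without the 2 libraries that held Xist counts (-0.28, adjusted p = 0.206 in edgeR). The noncoding gene Gm2061, on the opposite strand, shares 533 of the 5836 exonic bases of Slc30a10, so some reads may not be told apart. Gm2061 fell from 4.54 ± 0.261 to 2.83 ± 0.0991 CPM (n = 3 each, SD; edgeR Benjamini-Hochberg adjusted p = 0.00923). On the far side, the nearest tested gene, the lipase-like Lyplal1, lies 618969 bases away and rose with a log2 fold change of 0.67.

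Slc30a1 (ZnT1), the zinc exporter of the plasma membrane and a target of Mtf1, gave very few counts and reached the count filter in the DBA/2 libraries alone, so that its call is not independent of the filter. It had 8, 2 and 12 counts in C57BL/6 against 30, 21 and 22 in DBA/2, or 0.409 ± 0.235 and 1.53 ± 0.267 CPM (n = 3 each, SD). All DBA/2 libraries lay above all C57BL/6 libraries, and the log2 fold change was 1.80 ± 0.39 (SE; Benjamini-Hochberg adjusted p = 0.0012 by the edgeR quasi-likelihood test). Without 1 library the change ran from 1.48 to 2.19, and against C57BL/6 replicate 2 alone, which held 2 counts, it was 3.32. The antisense gene 1700034H15Rik shares 468 of the 5244 exonic bases of Slc30a1 and moved in the same direction, with 1, 0 and 2 counts in C57BL/6 against 5, 14 and 14 in DBA/2. Since counting is not stated to use strand, the level of Slc30a1 is uncertain. Its nearest tested neighbours were the acyltransferase gene Lpgat1, at a log2 fold change of 0.03, and the corepressor gene Rcor3, which rose by 0.28.

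Slc30a4 (ZnT4), an exporter into vesicles that is best known from the mammary gland (chromosome 2, 122681233 to 122702663, reverse strand), was at or under the limit of detection. It had 0 counts in all 3 C57BL/6 libraries and 1, 0 and 0 counts in DBA/2. At 0 counts, a level of up to 3 counts is allowed, which is 0.1496 to 0.2187 CPM in these libraries, a limit that covers counting error only. The noncoding gene 4930417H01Rik, on the opposite strand, shares 130 of the 5482 exonic bases of Slc30a4. Since the program and annotation behind the counts are not given either, the level of Slc30a4 is uncertain. Its flanking genes were measured, with Bloc1s6, of a lysosome-related organelle complex, at 24.9 CPM in C57BL/6 against 25.7 CPM in DBA/2.

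Slc39a10 (ZIP10), an importer of the plasma membrane on chromosome 1 (46807544 to 46892852, reverse strand), was not called. Its levels were 149, 158 and 157 CPM in C57BL/6 against 158, 175 and 167 CPM in DBA/2, so the strains met at 158 CPM. The means were 155 ± 4.69 and 167 ± 8.62 CPM (n = 3 each, SD), with a log2 fold change of 0.11 ± 0.05 (SE; Benjamini-Hochberg adjusted p = 0.128 by the edgeR quasi-likelihood test). Without DBA/2 replicate 1 it passed the threshold, at 0.15 with an adjusted p of 0.0492 in edgeR. The dynein heavy chain gene Dnah7c, which ends 68 bases from Slc39a10, fell from 5.22 ± 0.359 to 1.64 ± 0.172 CPM (n = 3 each, SD).

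**Figure D4:**
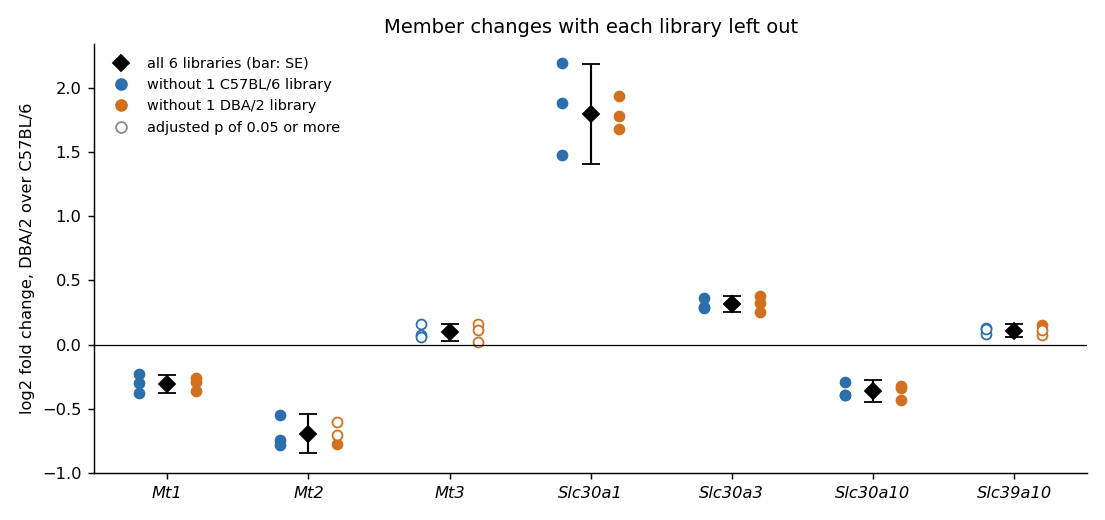
Log2 fold change, DBA/2 over C57BL/6 (vertical axis), of the 7 tested genes with all 6 libraries (diamonds, bars are SE) and with 1 library left out (circles, open where the adjusted p was 0.05 or more). Mt2 is open in 2 of its 6 circles, Mt3 in all 6 and Slc39a10 in 5; no circle crosses 0. Some circles overlap.

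Levels per length, in FPKM as the authors deposited them, put the metallothioneins far above the transporters in both strains. In C57BL/6 the order was Mt3 (161 ± 11.5 FPKM), Mt1 (138 ± 13.8), Mt2 (137 ± 23.1), Slc39a10 (25.1 ± 0.812), Slc30a3 (22.9 ± 1.36), Slc30a10 (4.52 ± 0.356), Slc30a1 (0.0767 ± 0.0416) and Slc30a4 (0), with SD over 3 libraries. In C57BL/6, Mt1 and Mt2 did not differ beyond their spread in FPKM, which divides by 1246 bases for Mt1 and 588 for Mt2. Not divided by length, they stood at 174 ± 17.7 and 81.3 ± 13.8 CPM (n = 3 each, SD). In DBA/2 Mt3 (175 ± 16.4 FPKM) was followed by Mt1 (113 ± 8.09) and Mt2 (85.5 ± 10.3), now apart by more than their spread. In DBA/2, Slc30a3 (28.9 ± 2.37 FPKM) and Slc39a10 (27.6 ± 1.47 FPKM) did not differ beyond their spread. These FPKM use the whole exonic length of each gene, which is 1066 bases for Mt3, while its longest coding transcript in GENCODE M21 has 536. Per kilobase of the longest coding transcript, Mt3 was at 324 ± 23.3 CPM in C57BL/6 and Mt1 at 160 ± 16.3 CPM (n = 3 each, SD). The distance between metallothioneins thus depends on the length used, with Mt3 highest on these 2 scales. Coding transcripts run from 549 to 1085 bases for Mt1, 388 to 511 for Mt2 and 440 to 536 for Mt3. The form that the reads came from was not tested, so these distances are uncertain. On the coding transcript scale Slc30a3 stood above Slc39a10 in both strains, at 31.3 ± 1.89 against 28.2 ± 0.854 CPM per kilobase in C57BL/6 and 38.9 ± 3.25 against 30.4 ± 1.57 in DBA/2 (n = 3 each, SD), so the order of these 2 in C57BL/6 depends on the length as well.

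The remaining zinc transporter genes were mostly not called, with 2 exceptions. Of 19 further Slc30 and Slc39 genes, 17 were tested, 2 were called lower and none higher, 11.8% against 22.8% of all genes, and their median log2 fold change was 0.00. Slc39a2 (ZIP2), a plasma membrane importer, was at 16.1, 18.8 and 17.6 CPM in C57BL/6 against 5.34, 4.48 and 7.204 CPM in DBA/2. That is a log2 fold change of -1.64 ± 0.14 (SE; Benjamini-Hochberg adjusted p = 3.71e-09 by the edgeR quasi-likelihood test), and only 1.56% of tested genes had a change as low or lower. Slc30a2 (ZnT2), a vesicular exporter, fell from 4.55 ± 0.546 to 2.80 ± 0.241 CPM (n = 3 each, SD; edgeR Benjamini-Hochberg adjusted p = 0.00991), a call lost without C57BL/6 replicate 2 (adjusted p = 0.0504 in edgeR). The 3 of the others with most counts were Slc30a9, at 186 ± 2.29 and 193 ± 4.04 CPM, Slc39a3, at 88.4 ± 1.65 and 89.4 ± 1.93 CPM, and the astrocytic importer Slc39a12, at 63.2 ± 6.82 and 58.0 ± 4.84 CPM (n = 3 each, SD), none of them called. The islet transporter gene Slc30a8, with 7 counts in C57BL/6 and 0 in DBA/2, and Slc39a5, with 27 and 28, were below the count filter.

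**Figure D5:**
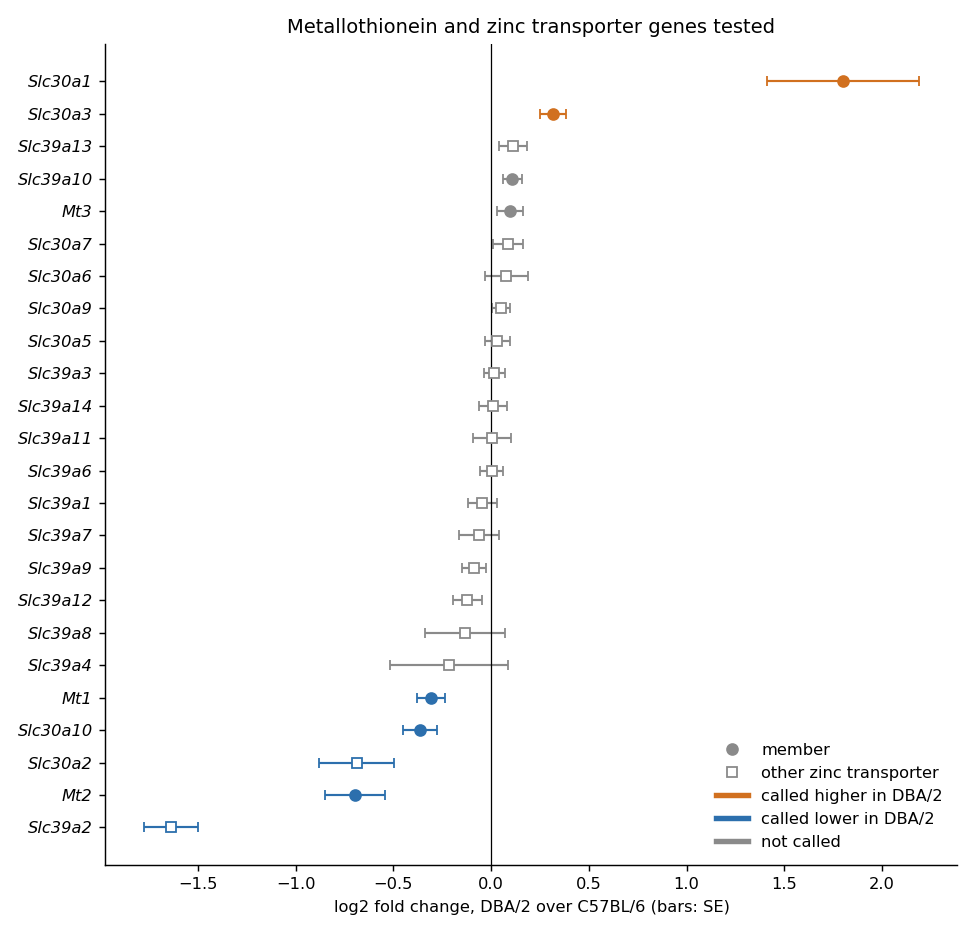
Log2 fold change, DBA/2 over C57BL/6 (horizontal axis, bars are SE), of the 7 tested members (filled circles) and the 17 other tested zinc transporter genes (open squares), in order of change and coloured by call. Slc30a1 and Slc30a3 are called higher, Mt1, Slc30a10, Slc30a2, Mt2 and Slc39a2 are called lower, and the other 17 genes lie between -0.22 and 0.11.

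The zinc sensor Mtf1, through which Mt1, Mt2 and Slc30a1 respond to metal, was itself at 35.9 ± 1.33 and 34.8 ± 2.24 CPM (n = 3 each, SD) and was not called (log2 fold change -0.04, edgeR Benjamini-Hochberg adjusted p = 0.725). Of 23 tested genes of metal regulation and of copper, iron and manganese handling, 1 rose and 6 fell, with a median of -0.11; the 30.4% called lies near the 22.8% of all genes. The largest change was in Tmem163, a zinc transporter of synaptic vesicles and lysosomes outside the Slc30 and Slc39 families, which fell from 13.2 ± 1.78 to 7.35 ± 1.64 CPM (n = 3 each, SD; edgeR Benjamini-Hochberg adjusted p = 0.000149). Next came the iron carrier Trf (-0.40) and the lysosomal ATPase gene Atp13a2 (-0.31). The 1 rise was in Atp2c1, a calcium and manganese pump of the Golgi (0.29). Of 10 tested receptors and channels that zinc modulates, 1 rose and 2 fell with a median of -0.08, or 3 of 10 called, again near the share of all genes. The zinc-sensitive NMDA receptor subunit gene Grin2a rose (0.33), while Grin2b (-0.72) and the glycine receptor gene Glra2 (-0.78) fell.

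Mt1 and Mt2 are also induced by glucocorticoids, and 6 of 16 glucocorticoid response genes fell beside them and none rose. That is 37.5% called in either direction against 22.8% of all genes, and 37.5% called lower against 13.7%. The median log2 fold change of the list was -0.14. Their largest changes were in the phosphatase gene Dusp1 (-0.54), the cell cycle inhibitor Cdkn1a (-0.50) and the transcription factor Klf9 (-0.48). Among the genes of this list that were not called were Fkbp5 (0.15), Zbtb16 (0.09) and Sgk1 (-0.09). All 3 expressed metallothioneins are known from astrocytes. Of 18 astrocyte markers 10 fell and 2 rose, 66.7% called against 22.8% of all genes, with a median of -0.16; the summed level was 7479 to 8035 CPM in C57BL/6 and 7146 to 7818 CPM in DBA/2, so the strains overlapped, and no marker was at 0. Ntsr2, a neurotensin receptor (-0.74), and Gfap, the astrocytic filament protein (-0.64), changed most. The 2 rises were in Slc1a2 (0.30) and Fgfr3 (0.15). Slc1a2 had the highest level of all 18 markers, and its mean went up from 2689 ± 50.1 to 3314 ± 281 CPM (n = 3 each, SD). The overlap of the sums therefore rests in part on this 1 gene and does not show that the other markers were alike. The part of astrocytes and of glucocorticoid response in the falls of Mt1 and Mt2 was not tested.

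Of the marker lists for adjoining tissue, vessels and microglia, thalamus and habenula and microglia had shares of called genes (50% and 66.7%) above the 22.8% of all genes, and the other 3 had shares below it. Of 14 thalamus and habenula markers 7 fell and none rose, with a median log2 fold change of -0.93 and a summed level of 574 to 794 CPM in C57BL/6 and 341 to 432 CPM in DBA/2. The falls were largest in the transcription factor Gbx2 (-3.08), Synpo2 (-1.96) and Rgs16 (-1.83). None of 12 choroid plexus markers was called, with a median of 0.41 and summed levels of 1144 to 2356 and 1735 to 3747 CPM; those with most counts were Ttr (0.96) and Enpp2 (0.38). Of 11 fibroblast and meninges markers 1 fell, Pdgfra (-0.22), with a median of -0.13 and summed levels of 466 to 636 and 312 to 449 CPM. These sums rest in large part on Ptgds, at 341 ± 66.7 and 146 ± 49.9 CPM (n = 3 each, SD), which was not called. Dcn, Lum, Col3a1 and Igf2 had positive changes, none of them called, so the sums do not show that the list fell as a whole. Of 16 vessel markers 2 rose, Cldn5 (0.45) and Slco1a4 (0.36), and 1 fell, Vtn (-0.41), with a median of 0.27 and summed levels of 372 to 478 and 442 to 520 CPM. Of 12 microglia markers 8 fell, most of all Fcrls (-2.46), C1qb (-1.36) and C1qc (-1.31), with a median of -0.41 and summed levels of 435 to 470 and 330 to 359 CPM. No marker of these 5 lists was at 0 over the 6 libraries, and their part in the changes of the metallothionein and transporter genes was not tested.

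Genes whose log2 CPM ran most like each called member over the 6 libraries were sought among 8021 genes with a mean of at least 20 CPM. For Mt2 these were Tob2, an antiproliferative factor (Pearson r = 0.9997, log2 fold change -0.53), and Map1lc3a, an autophagy protein (r = 0.995, -0.14). For Mt1 they were Ccdc25 (r = 0.998, -0.11) and the red cell phosphoglycerate mutase gene Bpgm (r = 0.997, -0.16). Those for Slc30a3 were the nuclease gene Snd1 (r = 0.997, 0.13) and the calcium-binding protein gene Cabp7 (r = 0.993, 0.27), those for Slc30a10 were Pcnx4 (r = 0.991, -0.13) and Orc6 (r = 0.990, -0.20), and those for Slc30a1 were Uckl1 (r = 0.999, 0.08) and Zmpste24 (r = 0.997, 0.18). The 6 libraries fall into 2 strains, so a strain difference enters each of these values. They are also the highest among 8021 genes for each member, and so describe these libraries only. Only Tob2 and Cabp7 among these genes were themselves called.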

How the data were processed

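RNA of 6 hippocampus libraries, 3 per strain, was analysed. The deposited table gives raw counts and FPKM for every gene; each FPKM value the authors gave equalled the count over listed exonic length and library total within 0.005. Tools named per the submitters' processing notes are Cufflinks 2.2.1, HISAT2 2.0.1 and Trimmomatic 0.30, with build GRCm38. The program and annotation behind the counts, and any use of strand, are not given in the sources. A further 12 per-sample columns match no label and were left out.

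Counts were tested in R 4.3.3 with edgeR 4.0.16 (quasi-likelihood test with robust fit, TMM factors, filterByExpr), two-sided, adjusted by Benjamini-Hochberg over 17517 genes. Standard errors are the change divided by the square root of F. The fit was tested on simulated data with known changes. Positions are from GENCODE M21 (GRCm38, counted from 1) and promoters from RefSeq (GRCm38.p6); similar transcripts were sought with BLAST 2.17.0. The only similar transcript in another gene, beside overlapping antisense genes, was Gm6801 for Slc39a10, with 0 counts.

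The members and lists were chosen with earlier results of these data known. Named genes were all members; called or the 3 most abundant other zinc transporters; in each further list the 3 largest called changes, or the 2 most abundant genes without a call; the 4 nearest tested genes on each side of the metallothionein cluster and 1 on each side of other members, of which the text gives most; and the 2 genes most correlated with each called member. A few genes under this rule are not reported here. The alternatives tried were size factors of DESeq2, scaling by library size, 2 other count filters, the DESeq2 1.42.0 Wald test, voom and log2(FPKM + 1) or log2(FPKM + 0.1) in limma 3.58.1, the replicate number as a block, and leaving out libraries.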

Additional observations from a re-analysis of the deposited data

How the results depend on the processing

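Over 16 alternatives, 104 of 111 recomputed changes of the 7 tested members kept their direction and their side of the threshold, 5 lost a call, 1 gained one and 1 turned. Under the DESeq2 Wald test, voom, both other scalings, no filter on low counts and both FPKM scales, the same 5 members were called in the same directions; with a mean of at least 5 CPM, Slc30a1 was not tested. Without the 2 libraries that held Xist counts, which leaves 1 C57BL/6 library that is assumed to vary like the others, 2012 genes were called in place of 4000 and 3 members in place of 5. The changes were then 0.22 for Slc30a3 and -0.28 for Slc30a10, neither called, and -0.017 for Mt3. Leaving out 1 library gave changes of -0.78 to -0.55 for Mt2 and 0.073 to 0.15 for Slc39a10, 4 to 6 called members and 3131 to 3717 called genes. Of the other zinc transporters, 1 in place of 2 was called with a mean of at least 5 CPM, where Slc30a2 is not tested, and 1 to 2 without 1 library. The cause was not tested for changes where none is named.

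Nothing in the labels says that a replicate number marks a shared animal or day, and the deviations of same-numbered libraries correlated at 0.13, -0.08 and 0.00, so the numbers were not taken as pairs; only library 1 correlated best with its own number. With the replicate number as a block, 3827 genes and 4 members were called, and Mt2 had a change of -0.69 with an adjusted p of 0.0524 in edgeR. For the 3 ratios, with changes of 0.39, 0.51 and 0.25 on the log2 scale, the block gave p = 0.25 in an exact sign-flip permutation test, the smallest it allows. Slc30a1 and Slc30a4 had few or no counts, and the cause was not tested.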
